A study of Mus musculus with 6 samples.

Results

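Atf4 and 9 genes of serine synthesis and of the response that the ATF4 protein drives were compared between T1 and T2 cells. The 9 genes are Phgdh, Psat1, Psph, Shmt2, Mthfd2, Asns, Ddit3, Trib3 and Chac1, and all 10 were taken by symbol from the 24129 gene names in the table of normalized counts. Each of the 10 averaged 10 normalized counts or more across the libraries, the filter that 11514 of all genes met. T1 cells (labelled 4T1A) were low in GFP and adherent, and T2 cells (labelled 4T1NA) were high in GFP, round and loosely attached. Each population was represented by 3 replicates.

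Both populations descend from 4T1GFP, a mouse mammary carcinoma line tagged with green fluorescent protein, after growth as a tumor in the mammary gland of BALB/c mice. Per the study's methods, both were sorted by GFP level from a culture of tumor fibroblasts in which GFP-positive tumor cells had taken over, so they are cultured cells with no host tissue around them. They shared a medium with serum, but T2 cells were passaged like a suspension culture, without trypsin, and this difference in handling cannot be told apart from the population. The series' design calls the replicates independent, but no source used here says how many tumors or sorts lie behind them, so the p-values below measure the spread between these samples. Because the RNA is from bulk cultures, fewer cells with a transcript and less of it per cell cannot be told apart.

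Serine is made from a glycolytic intermediate in a short chain of reactions in the cytosol, and mitochondrial enzymes then pass its side-chain carbon to the folate pool that serves purine and thymidylate synthesis. When amino acids run short or unfolded protein builds up in the endoplasmic reticulum (ER), kinases phosphorylate the translation initiation factor eIF2, general protein synthesis falls and Atf4 mRNA is translated more. ATF4 is a basic leucine zipper (bZIP) factor that binds DNA with a partner and induces amino acid synthesis, transport and tRNA charging as well as genes that restrain the response. The mRNA level of Atf4 is therefore not a measure of ATF4 protein, which was not measured here.

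Between 18133227 and 20839686 reads fell on genes in a library. The distance between libraries on the log2 scale ran from 33.7 to 44.5 within a population and from 145.7 to 154.0 between populations. Krt8 and Krt18, keratins of simple epithelium, were abundant in both populations, whereas Epcam and Cdh1 differed by 6.46 and 4.98 on the log2 scale in favour of T1 cells. The summed level of 5 fibroblast markers was 20.1 to 40.0 normalized counts in T1 and 0 to 0.979 in T2 libraries, with Col3a1 and Lum at 0 in all 6. For 4 leukocyte markers the sum was 0 to 6.51 in T1 and 7.17 to 14.8 in T2 libraries, with Tyrobp at 0 throughout, and for 4 endothelial markers 1.95 to 14.8 and 0 to 6.50, with Kdr at 0. Among the T1 libraries, replicate 3 stood apart, and it carried the highest T1 value of every gene among the 10. Its median absolute deviation from the mean of the other T1 libraries was 0.178 (log2, over all genes tested). For T1 replicates 1 and 2 the same measure was 0.129 and 0.117. T2 replicate 2 stood apart in a smaller number of the genes. Over all genes tested its median absolute deviation from the other T2 libraries was 0.136, close to that of T2 replicate 3 (0.135). For T2 replicate 1 it was 0.113. Results are therefore also given without these libraries.

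A gene is said to pass where its limma p-value, adjusted by Benjamini and Hochberg's method over all genes tested, was under 0.01. Of the 10 genes, 8 passed as higher in T1 cells, where 25.1% of all genes tested did. None passed as lower in limma, where 24.4% of all genes did. At an unadjusted p-value under 0.05, limma and DESeq2 called 0 of the 10 lower and edgeR called 1, where limma called 33.0% of all genes tested lower, edgeR 33.0% and DESeq2 32.1%. Psph and Ddit3 did not pass. Every T1 value was above every T2 value in 9 of the 10 genes, against 34.2% of all genes tested. The median log2 fold change (T1 minus T2) was 1.18, and over all genes tested it was -0.005. The filter of the study also asks for a log2 fold change above 2, and the study applied it to DESeq2 results. In limma it was passed by 2 of the 10, Mthfd2 and Trib3, where 4.17% of all genes passed it as higher in T1 cells. Chac1 passed it too in DESeq2, where 487 of 11514 genes did as higher, and in edgeR, where 486 did. Without T1 replicate 3, 7 of the 10 passed as higher (25.1% of all genes) and the median was 0.94. Without T1 replicate 3 and T2 replicate 2 together, again 7 passed (25.2% of all genes). With 3 libraries against 3, an exact permutation test over samples cannot give a p-value under 0.1. The genes and the lists below were chosen with earlier results of these data known, so the counts describe these genes and do not test the set.

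**Figure D1:**
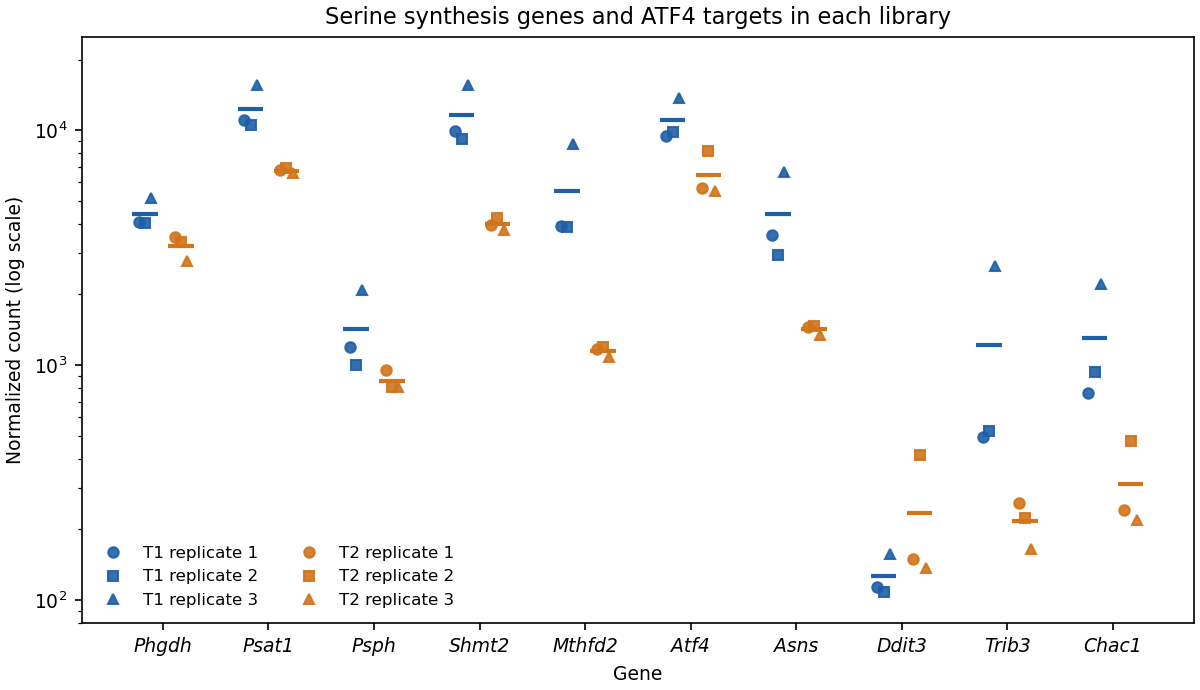
Normalized counts (log axis) of the 10 genes in each library, T1 in blue and T2 in orange, with a symbol for each replicate number and a line at the mean of each population. T1 replicate 3 (blue triangle) is the highest T1 value in all 10 genes, and the populations overlap only in Ddit3.

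The steps of serine synthesis are carried out by PHGDH, PSAT1 and PSPH. PHGDH oxidizes 3-phosphoglycerate, PSAT1 transfers an amino group and PSPH removes the phosphate. Phgdh (mm10 chromosome 3, 98313170 to 98339990, minus strand) was at 4081, 4047 and 5133 normalized counts in T1 replicates 1, 2 and 3 and at 3504, 3357 and 2786 in the T2 replicates. All T1 values were above all T2 values, with a gap that was small beside the level of the gene. This gave a log2 fold change of 0.46 (SE 0.12, 95% interval 0.20 to 0.71, adjusted p = 0.00571 in limma). Without T1 replicate 3 it was 0.35 and no longer passed (adjusted p = 0.0129), nor did it without T2 replicate 2 (0.0121) or T2 replicate 3 (0.0271), and over all 17 alternatives the adjusted p in limma, edgeR or DESeq2 ran from 0.00039 to 0.0278. Phgdh has 10 other annotated loci, nearly all processed pseudogenes, that match its transcripts at 95% identity or more over at least 150 bases, so its reads may have been shared or lost in alignment.

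Psat1 (chromosome 19, 15904678 to 15947337, minus strand) was at 11027, 10552 and 15510 normalized counts in the T1 replicates and at 6752, 6890 and 6572 in the T2 replicates. The T2 libraries lay close together, and the lowest T1 library was well above them. Its span holds a processed pseudogene, Gm3329, on the other strand. The log2 fold change of Psat1 was 0.85 (SE 0.13, 95% interval 0.57 to 1.14, adjusted p = 0.000208 in limma), and 0.68 without T1 replicate 3.

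Psph (chromosome 5, 129765558 to 129787449, minus strand) was at 1190, 999.8 and 2096 normalized counts in the T1 replicates and at 953.7, 808.9 and 806.3 in the T2 replicates. T1 replicate 3 was far above the other T1 libraries, and T1 replicate 2 lay just above T2 replicate 1. Its log2 fold change of 0.67 (SE 0.22, 95% interval 0.17 to 1.16) did not pass (adjusted p = 0.0236 in limma). It was 0.35 without T1 replicate 3 and 0.89 without T1 replicate 2, where it passed (adjusted p = 0.00447 in limma, within a range of 0.00447 to 0.0803 over the alternatives). The annotated span of Psph overlaps a transcript of Cct6a on the other strand that matches it over 452 bases. Cct6a was far more abundant, at up to 17694 normalized counts in a library. No source used here states whether reads were counted by strand, so part of the Psph value may come from Cct6a.

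SHMT2 splits serine into glycine and a one-carbon unit inside mitochondria, and MTHFD2 oxidizes that unit on its folate carrier. Both genes differed more than those of serine synthesis itself. Shmt2 (chromosome 10, 127517123 to 127522444, minus strand) was at 9946, 9163 and 15572 normalized counts in the T1 replicates and at 3952, 4237 and 3778 in the T2 replicates, with a log2 fold change of 1.50 (SE 0.17, 95% interval 1.13 to 1.86, adjusted p = 2.49e-05 in limma). Mthfd2 (chromosome 6, 83305691 to 83325908, minus strand) was at 3896, 3873 and 8715 normalized counts in the T1 replicates and at 1168, 1195 and 1083 in the T2 replicates, with a log2 fold change of 2.15 (SE 0.26, 95% interval 1.58 to 2.71, adjusted p = 4.17e-05 in limma). In both genes the T2 libraries were nearly alike and every T1 library was more than double the T2 mean. In limma, Mthfd2 had the largest log2 fold change of the 10 genes with all libraries and also without T1 replicate 3, where it was 1.76 and fell under the filter of 2. Shmt2 was then at 1.26. In edgeR and in DESeq2 Trib3 was larger, at 2.50 against 2.26 for Mthfd2. Trib3 was also larger in limma without T1 replicate 1 or 2 or T2 replicate 1. Chac1 was larger without T2 replicate 2 (2.33 against 2.18). It was also larger without T1 replicate 3 and T2 replicate 2 together (1.87 against 1.79). Mthfd2 and Shmt2 passed the adjusted p-value under all 17 alternatives. Shmt2 overlaps Ndufa4l2 on the other strand, and Mthfd2 overlaps an unclassified gene model on its own strand.

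Atf4 (chromosome 15, 80255184 to 80257541, plus strand) was at 9486, 9865 and 13702 normalized counts in the T1 replicates and at 5674, 8132 and 5515 in the T2 replicates. The highest libraries were T1 replicate 3 and T2 replicate 2, and the populations did not overlap. The log2 fold change was 0.78 (SE 0.17, 95% interval 0.41 to 1.15, adjusted p = 0.00223 in limma), or 0.61 without T1 replicate 3. Its adjusted p ran from 2.5e-06 to 0.0171 over the alternatives in limma, edgeR and DESeq2, and it missed the threshold without T2 replicate 1 (0.0144) and without T2 replicate 3 (0.0153). Per kilobase of exon, Atf4 had the highest level of the 10 genes in both populations, with a mean of 4672 normalized counts per kb in T1 and 2731 in T2 cells. Shmt2 followed in T1 cells with 3718 and Psat1 in T2 cells with 1584. Ddit3 was lowest in T1 cells with 73.6 and Trib3 in T2 cells with 102.

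Asns, Trib3 and Chac1 are textbook targets of ATF4, and their promoters are shown because they are the 3 of the 10 genes with a match to the C/EBP-ATF response element within 250 bases before and 50 bases after the start site in RefSeq (GRCm38.p6). The element was searched as TGATGNAA on both strands. Each 30-base window is given 5′ to 3′ in the sense of its gene, with the match in capitals. The windows lie at chr6:7693214-7693243 on the minus strand (Asns), chr2:152344028-152344057 on the minus strand (Trib3) and chr2:119351038-119351067 on the plus strand (Chac1).
Asns: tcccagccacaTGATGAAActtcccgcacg
Trib3: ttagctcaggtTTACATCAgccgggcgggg
Chac1: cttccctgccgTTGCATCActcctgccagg
The match is in the forward sense in Asns, with its first base at -23 from the start site, and reversed in Trib3, at 15, and in Chac1, at -193. Of all 32851 promoters in the RefSeq table, 3.97% held such a match, and of the 11310 promoters of the genes tested 2.07% did. The cyclic AMP response element TGACGTCA was found in none of the 11 promoters of the 10 genes. It was in 1.79% of all promoters and in 3.23% of those of the genes tested. A match is a string of letters and was not tested for binding.

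Asns (chromosome 6, 7675169 to 7693254, minus strand) encodes asparagine synthetase, which makes asparagine from aspartate and glutamine. It was at 3572, 2956 and 6673 normalized counts in the T1 replicates and at 1454, 1468 and 1344 in the T2 replicates. The third T1 replicate was about double the others, and even the lowest T1 library was about double the T2 mean. On the log2 scale the difference was 1.54 (SE 0.23, 95% interval 1.02 to 2.06, adjusted p = 0.000236 in limma) and 1.19 without T1 replicate 3. It passed under all 17 alternatives.

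Trib3 (chromosome 2, 152337422 to 152344032, minus strand) encodes a pseudokinase that is induced by ATF4 and dampens the response. It was at 495.2, 523.6 and 2636 normalized counts in the T1 replicates and at 259.5, 224.2 and 165.2 in the T2 replicates. T1 replicate 3 held 5.18 times the mean of the other T1 libraries, and of all 11514 genes tested only 3 stood out more in that library on the log2 scale. The log2 fold change was 2.05 (SE 0.52, 95% interval 0.89 to 3.20, adjusted p = 0.00601 in limma). Without T1 replicate 3 it was 1.26, under the filter of 2, with an adjusted p of 0.000268 in limma. Over the alternatives the adjusted p ran from 0.000268 to 0.0333 in limma, edgeR and DESeq2, and it missed 0.01 when any T2 library alone was left out. Without T2 replicate 3 the log2 fold change was also under 2, at 1.86.

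Chac1 (chromosome 2, 119351229 to 119354381, plus strand) encodes an enzyme that breaks down glutathione and is induced with CHOP. It was at 760.8, 933.7 and 2209 normalized counts in the T1 replicates and at 240.9, 477.1 and 219.0 in the T2 replicates. T1 replicate 3 and T2 replicate 2 were each more than double the mean of the other libraries of their population. The log2 fold change was 1.98 (SE 0.38, 95% interval 1.14 to 2.83, adjusted p = 0.00109 in limma), 1.52 without T1 replicate 3 and 1.87 without both libraries. In edgeR and in DESeq2 it was 2.06, above the filter of 2.

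Ddit3 (chromosome 10, 127290774 to 127296288, plus strand) encodes CHOP, a bZIP factor that follows ATF4 in prolonged stress. It was the only gene of the 10 with a higher mean in T2 cells. Its level was 113.2, 107.9 and 157.1 normalized counts in the T1 replicates and 149.8, 415.7 and 136.4 in the T2 replicates. The populations overlapped, since T1 replicate 3 was above T2 replicates 1 and 3, and T2 replicate 2 held 2.91 times the mean of the other T2 libraries. The log2 fold change was -0.71 (SE 0.37, 95% interval -1.53 to 0.10, adjusted p = 0.114 in limma), and without T2 replicate 2 it was -0.20 (adjusted p = 0.443 in limma, the highest of a range of 0.0555 to 0.443 over the alternatives). Its span overlaps Mars, a tRNA synthetase gene with far more reads, on the other strand.

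**Figure D2:**
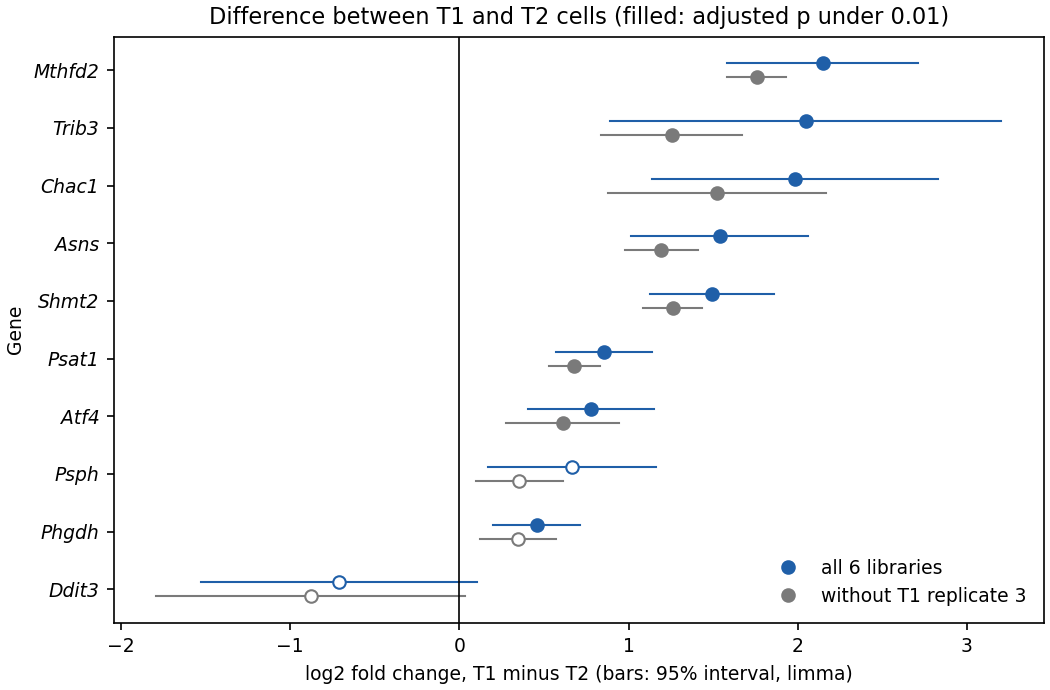
Log2 fold change of the 10 genes (T1 minus T2, horizontal axis) with its 95% interval in limma, from all 6 libraries (blue) and without T1 replicate 3 (grey), with filled points at an adjusted p under 0.01. Every gene except Ddit3 lies above 0 in both fits, and Mthfd2 is highest at 2.15 and 1.76. Of the fits drawn, Phgdh passes only in the one with all libraries.

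T1 replicate 3 was the highest T1 library in 10 of the 10 genes, as in 41.4% of all genes tested, and exceeded the mean of the other T1 libraries by over 1 on the log2 scale in 4 of them (Asns, Mthfd2, Trib3 and Chac1), as in 1.46% of all genes tested. The median excess over the 10 genes was 0.82, against 0.01 over all genes. The ratio of T1 replicate 3 to the mean of the other T1 libraries ran from 1.26 in Phgdh to 5.18 in Trib3. T2 replicate 2 differed in Ddit3, Chac1 (2.08 times the mean of the other T2 libraries) and Atf4 (1.45 times). The same genes were also higher in T1 replicate 3, at 1.42 (Ddit3), 2.61 (Chac1) and 1.42 (Atf4) times the mean of the other T1 libraries. In T2 replicate 2, Phgdh, Psat1, Psph, Shmt2, Mthfd2, Asns and Trib3 were within 0.919 to 1.10 times the mean of the other T2 libraries. What set these libraries apart was not tested.

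The other enzymes of glycine cleavage and the folate cycle moved in both directions. Of 19 genes 15 had enough reads. In T1 cells 8 passed as higher and 2 as lower, against 25.1% and 24.4% of all genes tested. The median log2 fold change of the list was 0.41. The counts and the median became 9, 3 and 0.46 when T1 replicate 3 was left out. Slc19a1, the reduced folate carrier of the plasma membrane, was at 1948, 1837 and 1478 normalized counts in the T1 replicates and at 565.0, 692.1 and 509.4 in the T2 replicates, a log2 fold change of 1.58 (adjusted p = 4.57e-06 in limma). Shmt1, the cytosolic counterpart of Shmt2, was lower in T1 cells, with a log2 fold change of -0.51 (adjusted p = 0.000693 in limma). Shmt1 was at 1927, 1750 and 2174 normalized counts in the T1 replicates and at 2923, 2719 and 2685 in the T2 replicates, so Shmt1 and Shmt2 differed in opposite directions with no overlap in either. In this list T1 replicate 3 had no median excess (-0.005 on the log2 scale), and it was the highest T1 library in 7 of the 15 genes.

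Among 14 genes for eIF2, its kinases and their regulators, 8 passed as higher and 0 as lower in T1 cells in limma. Of all genes tested, 25.1% and 24.4% did. The median log2 fold change of the list was 0.37. The counts and the median became 7, 0 and 0.39 when T1 replicate 3 was left out. Eif2ak1, which encodes the heme-regulated kinase HRI, was at 969.2, 989.5 and 884.3 normalized counts in the T1 replicates and at 723.6, 772.0 and 721.9 in the T2 replicates. These values did not overlap, and the log2 fold change was 0.36 (adjusted p = 0.00613 in limma, above 0.01 when T1 replicate 1 or 2 or T2 replicate 1 or 3 was left out, up to 0.0323). Eif2ak2 (PKR) had a log2 fold change of -0.02, Eif2ak3 (PERK) of -0.02 and Eif2ak4 (GCN2) of -0.04, with 95% intervals of -0.23 to 0.19, -0.37 to 0.32 and -0.23 to 0.15, and none passed. The largest differences in the list belonged to Eif2b3, a subunit of the exchange factor that reloads eIF2, at 1.25 (adjusted p = 2.33e-06 in limma), and to Impact, an inhibitor of GCN2 activation, at 1.17 (adjusted p = 4.87e-05 in limma). The highest T1 library was replicate 3 in 4 of the 14 genes.

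Of 7 genes listed as bZIP partners of ATF4, 2 passed as higher and 2 as lower in T1 cells, shares near those of all genes tested (25.1% and 24.4%), and the counts were the same without T1 replicate 3. The median log2 fold change was 0.85, or 0.63 without that library. Jdp2, a repressor of the AP-1 type, was at 517.4, 521.7 and 1664 normalized counts in the T1 replicates and at 237.0, 219.1 and 206.9 in the T2 replicates, a log2 fold change of 1.79 (adjusted p = 0.00167 in limma) that was 1.23 without T1 replicate 3. It missed the threshold without T2 replicate 3 (adjusted p = 0.0108) and in limma without the variance trend (0.0135). Nupr1, a stress-induced chromatin protein listed here with these factors although it has no leucine zipper, was at 645.4, 997.9 and 1652 in the T1 replicates and at 215.4, 455.6 and 280.2 in the T2 replicates, a log2 fold change of 1.75 (adjusted p = 0.000944 in limma). Both had the library pattern of Chac1 or Trib3, with T1 replicate 3 highest. Lower in T1 cells were Nfe2l2, which encodes NRF2, at -0.71 (adjusted p = 0.000611 in limma), and Cebpb at -0.98 (adjusted p = 0.00793 in limma), whose populations overlapped and whose value without T2 replicate 2 was -0.67 (adjusted p = 0.0244 in limma). Cebpb also missed the threshold without T1 replicate 1 or 2, without T2 replicate 1, in DESeq2 and in limma without the variance trend, at adjusted p-values up to 0.0387. Atf3, singled out after its values were seen, was at 577.7, 2228 and 684.2 normalized counts in the T1 replicates and at 194.9, 2897 and 267.2 in the T2 replicates, so that replicate 2 was highest in each population and T2 replicate 2 held 12.5 times the mean of the other T2 libraries.

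Of 9 amino acid transporter genes 8 were tested, and 3 passed as higher and 0 as lower in T1 cells in limma. Of all genes tested, 25.1% and 24.4% did. The median log2 fold change of the list was 0.58. Its counts were again 3 and 0 and its median was 0.26 without T1 replicate 3. Slc7a5, the light chain of the transporter LAT1 for large neutral amino acids, was at 7369, 7090 and 13766 normalized counts in the T1 replicates and at 2610, 2575 and 2174 in the T2 replicates, a log2 fold change of 1.87 (adjusted p = 2.96e-05 in limma). Its heavy chain Slc3a2 rose by 1.26 on the log2 scale (adjusted p = 0.000137 in limma). In all 8 genes tested the highest T1 library was replicate 3. Slc6a9, a glycine transporter singled out after its values were seen, was at 584.1, 502.2 and 2808 normalized counts in the T1 replicates and at 413.2, 433.1 and 443.5 in the T2 replicates. Its T1 replicate 3 was at 5.17 times the mean of the other T1 libraries, and its log2 fold change of 1.12 (adjusted p = 0.0764 in limma) was 0.33 without that library.

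The other ATF4 targets had the largest median difference of the lists, 1.49 on the log2 scale, and 0.94 without T1 replicate 3. Of 13 genes 10 were tested, and 7 passed as higher and 0 as lower in T1 cells in limma, or 8 and 1 without that library. With all libraries, 25.1% of all genes tested passed as higher and 24.4% as lower. Gpt2, a mitochondrial alanine aminotransferase, was at 834.8, 904.0 and 3885 normalized counts in the T1 replicates and at 223.3, 253.9 and 235.7 in the T2 replicates, a log2 fold change of 2.59 (adjusted p = 0.000693 in limma) that was 1.87 without T1 replicate 3. Stc2, a secreted glycoprotein, was at 55.0, 69.8 and 153 in the T1 replicates and at 21.5, 15.4 and 10.2 in the T2 replicates, a log2 fold change of 2.40 (adjusted p = 0.00043 in limma). In all 10 genes tested T1 replicate 3 was highest, by over 1 on the log2 scale in 9 of them. Cth, cystathionine gamma-lyase of cysteine synthesis, was singled out after its values were seen because it went the other way. It was at 218.0, 154.4 and 694.9 normalized counts in the T1 replicates and at 824.5, 646.1 and 896.4 in the T2 replicates. Its log2 fold change of -1.45 did not pass (adjusted p = 0.0139 in limma), with T1 replicate 3 among the T2 values, and without that library it was -2.09 (adjusted p = 9.22e-06 in limma).

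The 20 genes of cytosolic aminoacyl-tRNA synthetases, the enzymes that load amino acids onto tRNAs, were mostly higher in T1 cells. In T1 cells 16 passed as higher and 1 as lower, against 25.1% and 24.4% of all genes tested. The median log2 fold change of the list was 0.86. Without T1 replicate 3 the counts were again 16 and 1 and the median was 0.75. Every T1 value was above every T2 value in 19 of the 20, against 34.2% of all genes tested. Aars, for alanine, was at 10569, 10104 and 18561 normalized counts in the T1 replicates and at 4739, 4634 and 4103 in the T2 replicates, a log2 fold change of 1.49 (adjusted p = 7.67e-05 in limma). Tars, for threonine, rose by 1.32 on the log2 scale (adjusted p = 3.15e-05 in limma). Qars, for glutamine, was the gene that fell, at 3575, 3664 and 3655 in the T1 replicates and 4639, 4497 and 4601 in the T2 replicates, a log2 fold change of -0.33 (adjusted p = 0.00125 in limma). T1 replicate 3 was the highest T1 library in 14 of the 20 genes, and its median excess was 0.41 on the log2 scale.

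The response element was also found in the promoters of Jdp2 (chr12:85599372-85599401, plus strand), Nupr1 (chr7:126625562-126625591, minus strand) and Tars (chr15:11399655-11399684, minus strand), which are shown as examples from the other lists. The windows follow the same convention, and of these 3 the element is in the forward sense in Jdp2 only.
Jdp2: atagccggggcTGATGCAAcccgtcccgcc
Nupr1: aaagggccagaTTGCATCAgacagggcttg
Tars: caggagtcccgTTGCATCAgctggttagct
The reversed match has the letters TTGCATCA in Nupr1 and Tars, as in Chac1. A match was found in 5 of 12 promoters of the synthetases, in 4 of 13 of the other ATF4 targets, in 3 of 10 of the bZIP list, in 2 of 9 of the transporters and in 1 of 15 of the ER list, that of Herpud1. None of the 16 promoters of the folate list and none of the 12 of the eIF2 list held it. The 3 genes shown passed as higher in T1 cells, as did Aars, Gars, Iars and Yars, which also held a match. Atf3, Slc1a4, Slc7a11, Pck2, Pycr1 and Herpud1 held a match and did not pass. Among these, Slc7a11 had a log2 fold change of 0.295 (adjusted p = 0.587 in limma). Fgf21 and Vldlr held a match and had too few reads to be tested.

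Genes of ER protein folding, including targets of the XBP1 and ATF6 arms of the stress response, centred on -0.13 as median log2 fold change. In T1 cells 1 of 18 passed as higher and 2 as lower, against 25.1% and 24.4% of all genes tested. The balance in the list turned to 3 higher and 1 lower without T1 replicate 3, with a median of -0.07. The 3 were Herpud1, Hspa5 and Calr, named after their values were seen. Herpud1, a protein of ER-associated degradation, had a log2 fold change of 0.80 with all libraries (adjusted p = 0.0122 in limma) and 0.47 without T1 replicate 3 (adjusted p = 0.0047 in limma). Hspa5, the chaperone BiP, had 0.39 (adjusted p = 0.0165 in limma) and 0.49 (adjusted p = 0.00417 in limma), and Calr, calreticulin, 0.29 (adjusted p = 0.0662 in limma) and 0.45 (adjusted p = 0.00125 in limma). Atf6, a membrane-bound sensor, was at 2135, 2410 and 2857 normalized counts in the T1 replicates and at 4346, 4669 and 4446 in the T2 replicates, a log2 fold change of -0.87 (adjusted p = 3.92e-05 in limma). Dnajb9, a co-chaperone, was at -1.08 (adjusted p = 0.00877 in limma), with T2 replicate 2 at 2.22 times the mean of the other T2 libraries and -0.70 without it (adjusted p = 0.0171 in limma). It also missed the threshold without T1 replicate 1 or 3 or T2 replicate 3 and without the variance trend, at adjusted p-values up to 0.0344 in limma. Sdf2l1, an ER lumenal protein, was the gene past the threshold as higher with all libraries, at 0.47 on the log2 scale (adjusted p = 0.00954 in limma, above 0.01 with any library left out, up to 0.0366). In 6 of the 18 genes T1 replicate 3 was the highest T1 library. An ER stress element, CCAAT followed 9 bases later by CCACG on either strand, was found in 7 of 15 promoters of this list, in none of those of the 10 genes and in 0.119% of all promoters.

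**Figure D3:**
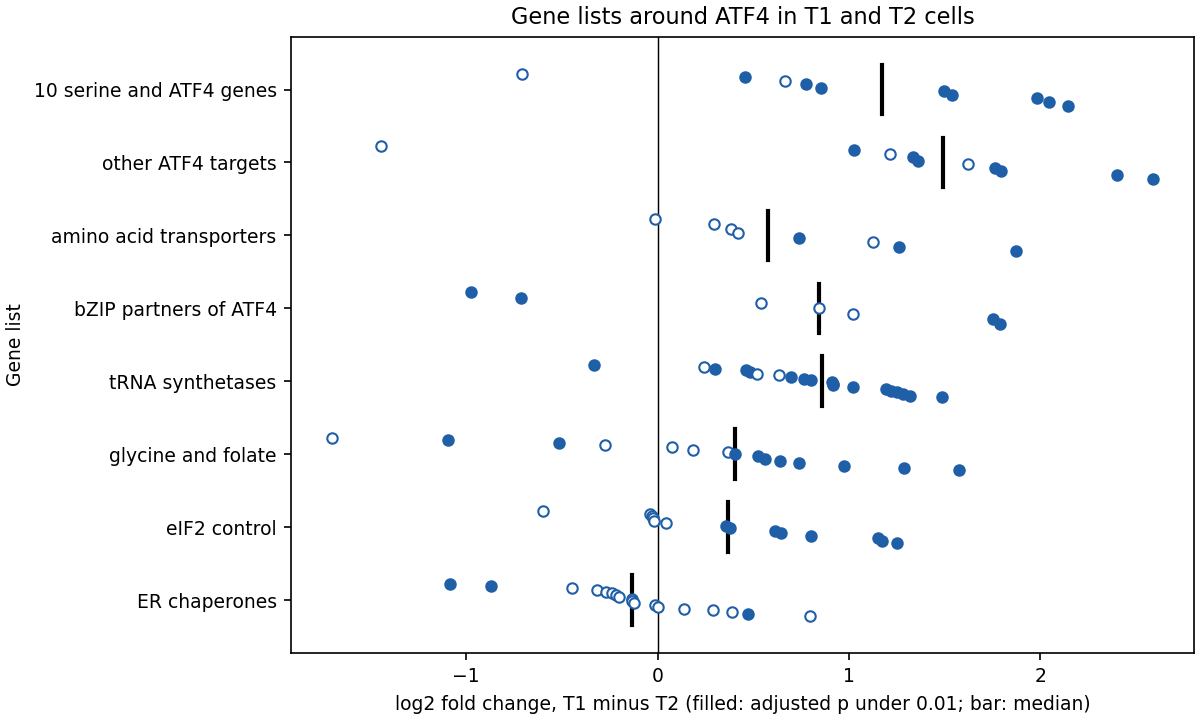
Log2 fold change (T1 minus T2, horizontal axis) of each tested gene of the 10 and of 7 related lists, with filled points at an adjusted p under 0.01 in limma and a black bar at the median of each list. The medians run from 1.49 for the other ATF4 targets and 1.18 for the 10 genes to -0.13 for the ER chaperones.

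**Figure D4:**
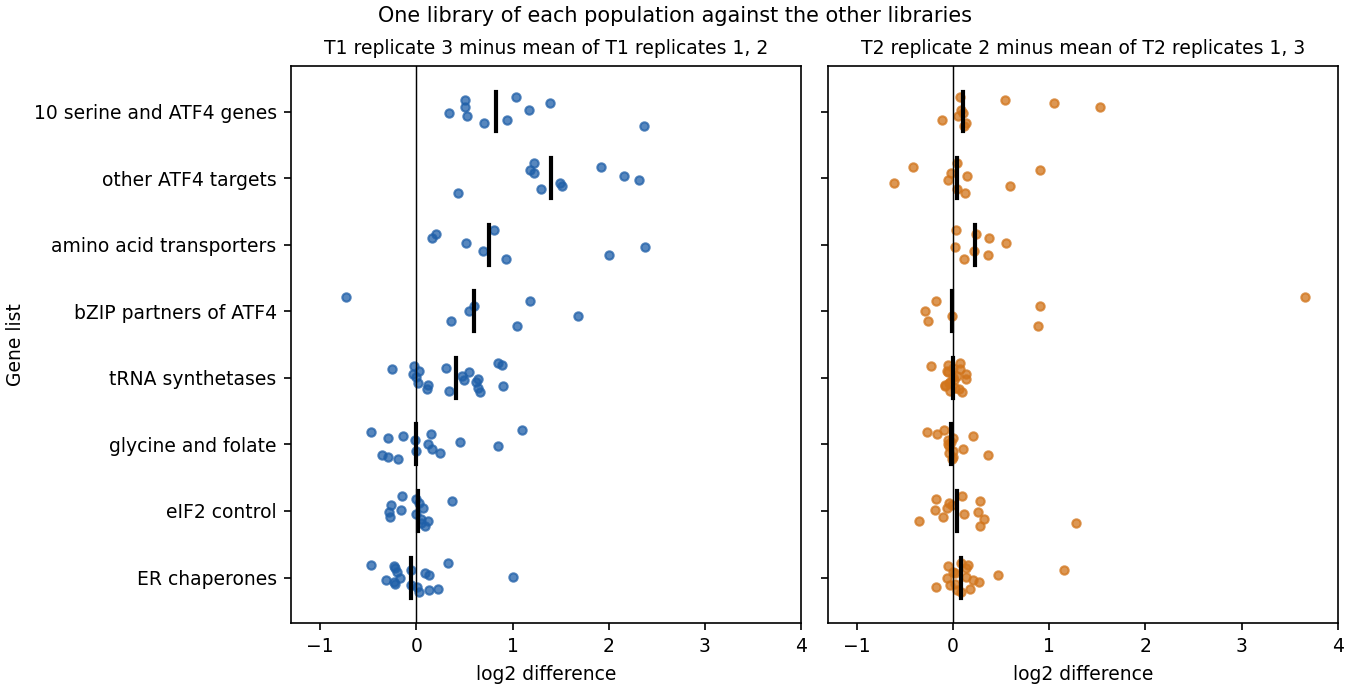
Log2 difference of T1 replicate 3 from the mean of T1 replicates 1 and 2 (left) and of T2 replicate 2 from the mean of T2 replicates 1 and 3 (right), with a point for each tested gene and a black bar at the median of each list. On the left the medians are 1.40 for the other ATF4 targets, 0.82 for the 10 genes and 0.75 for the transporters and within 0.06 of 0 for the folate, eIF2 and ER lists.

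Of 5 close relatives of the 10 genes, 3 passed as lower in T1 cells and 0 as higher in limma. Of all genes tested, 24.4% and 25.1% did. The counts among the relatives were 2 and 0 without T1 replicate 3. Trib2, a pseudokinase of the family of Trib3, was at 69.8, 43.7 and 71.3 normalized counts in the T1 replicates and at 1646, 1403 and 1655 in the T2 replicates, a log2 fold change of -4.68 (adjusted p = 2.19e-08 in limma). Trib1 was at 1255, 2707 and 1722 in the T1 replicates and at 3250, 8020 and 3488 in the T2 replicates, a log2 fold change of -1.32 (adjusted p = 0.00627 in limma) that was -0.90 without T2 replicate 2 (adjusted p = 0.0149 in limma). Trib1 also missed the threshold without T1 replicate 1 or 3, without T2 replicate 3, in DESeq2 and in limma without the variance trend, at adjusted p-values up to 0.0337. With the replicate number as a block, its adjusted p in limma was 3.0e-06. Thus all 3 Trib genes separated the populations without overlap, Trib3 with T1 above T2 and the others with T2 above T1. Ggct, a gamma-glutamylcyclotransferase like CHAC1 that acts on gamma-glutamyl amino acids, had a log2 fold change of -1.29 (adjusted p = 1.33e-05 in limma). Chac2, the second enzyme of the CHAC family, had 0.23 (95% interval -0.09 to 0.55, adjusted p = 0.188 in limma), and Asnsd1, which carries an asparagine synthetase domain, had 0.26 (95% interval 0.01 to 0.52, adjusted p = 0.0703 in limma).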

How the data were processed

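RNA was measured in 3 T1 and 3 T2 samples, grouped by their labels. Per the study's methods, the authors trimmed reads with Trimmomatic, aligned them with TopHat2 (build mm10), took gene counts with HTSeq and scaled these by DESeq2 size factors. The deposited signal is this normalized count (1 read is worth 0.928 to 1.06), and the annotation, strand setting and versions are not given in the sources used here. All values (100%) were whole reads within a tolerance of 0.01. Here limma 3.58.1 (trend, R 4.3.3) was fitted to log2(normalized count + 1) for 11514 genes averaging 10 or more, with Benjamini-Hochberg adjustment, and was tested on simulated data. This scale understates changes of low genes. On recovered reads, edgeR 4.0.16 and DESeq2 1.42.0 were alternatives and called 974 genes each past both filters, of which 956 were among limma's 964. Positions and exon lengths (the union over transcripts) came from GENCODE M21, and copies from BLAST 2.17.0. The genes and lists were chosen with earlier results of these data known. The rule named, besides the 10 genes, the eIF2 kinases, the relatives, and the 2 highest and 2 lowest passing genes of each list, some of which are not reported here. Gcn1 was matched as a synonym. Figures used matplotlib 3.10.9.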

Additional observations from a re-analysis of the deposited data

How the results depend on the processing

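Of the 10 genes, 8 passed as higher in T1 cells (adjusted p under 0.01), and it was again 8 in edgeR, in DESeq2, with pseudocounts of 0.5 or 5, with no filter or one at 50, and with quantile or TMM normalization. It was 4 in limma without the variance trend, where Atf4, Phgdh, Trib3 and Chac1 missed the threshold (adjusted p from 0.0108 to 0.032), and 9 at an adjusted p under 0.05. Leaving out single replicates gave 5 to 9: the count was 5 when T2 replicate 3 was omitted and 6 when T2 replicate 1 or 2 was. None of the 10 passed as lower under any of these. Calls over all genes moved as well. Of 11514 genes tested, 2888 passed as higher in T1 cells in the main fit. The number was 2896 in edgeR, 3104 in DESeq2, 2479 without the variance trend and 3612 at an adjusted p under 0.05. With 11481 to 11516 genes tested, it was 2451, 2390 and 2884 without T1 replicate 1, 2 or 3. It was 2418, 2612 and 2478 without T2 replicate 1, 2 or 3. Over all genes, 964 passed both filters in limma, 925 to 975 with a replicate left out, 659 to 1272 with other filters on low values, and 2445 at an adjusted p under 0.05 with a log2 fold change above 1. Of 663 log2 fold changes of 39 named genes under alternatives, 608 kept their direction and side of the threshold, 49 lost and 2 gained the call (both Psph), and 4 turned sign, all in kinase genes near 0. With a replicate left out Eif2ak2 ran from -0.08 to 0.034, Eif2ak3 from -0.148 to 0.08 and Eif2ak4 from -0.07 to 0.002, positive without T2 replicate 3 (Eif2ak2), without T1 replicate 1 or T2 replicate 2 (Eif2ak3, 0.07 in the latter) and without T1 replicate 1 (Eif2ak4). The causes of these shifts were not tested. Leaving out both T1 replicate 3 and T2 replicate 2 was chosen after seeing the data.

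Replicate numbers are shared between the populations, and the deviations of samples with the same number had weak positive correlations (0.057, 0.172 and 0.104). Those of samples with different numbers ran from -0.152 to 0.072. T2 replicates 2 and 3 correlated best with the T1 replicate of their own number, but T2 replicate 1 with T1 replicate 3 (0.072). The samples were not treated as pairs in the main fit, and what the same numbers share was not tested. With the replicate block, 967 genes passed both filters, and 9 of the 10 genes were higher in T1 cells, with Psph added (adjusted p = 0.00931 in limma).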
